A study of Mus musculus with 2 samples.

Results

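The 32 genes described here encode enzymes of cholesterol synthesis, the sensors and transcription factors that set their output, and proteins that take up, move, esterify or export cholesterol. They were chosen by symbol for these roles, and all 32 were present among the 32285 genes of the count matrix. Of these, 18 encode synthesis enzymes, 7 in the steps up to farnesyl diphosphate and 11 from squalene onwards. The other members are 5 regulators of sterol regulatory element-binding proteins (SREBP), 4 uptake and transport genes, 1 esterification gene and 4 genes of the liver X receptors (LXR) and of efflux. The series concerns Kir6.1, a potassium channel subunit, in the development of natural killer (NK) cells, lymphocytes that kill infected or transformed cells. The cells came from spleens of wild-type mice, and an antibody column held back the other blood lineages so that NK cells passed through. All cells were of this 1 genotype, untreated as far as the labels go, and no age or sex is given. Files of 1 of the 2 labelled samples entered the analysis; the second is not analysed here. Mice were pooled in 1 droplet library and marked by lipid tags. The counts carry 3 tags, called tag 1 to tag 3, which stand as replicates below; which mouse carries which tag is not given, so every p-value measures only the spread between tags, which may be technical.

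Cells make cholesterol from acetyl-CoA through mevalonate, isoprenoid diphosphates and squalene, and the same chain feeds protein prenylation. When sterols in the endoplasmic reticulum are low, SCAP carries SREBP2 to the Golgi, where it is cut and released to switch on the enzyme genes and lipoprotein receptors; INSIG proteins hold SCAP back when sterols are plentiful. When sterols are in excess, oxysterols activate LXR, which raises the efflux pumps ABCA1 and ABCG1, while SOAT1 stores cholesterol as esters.

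SREBP2 acts through sterol regulatory elements, usually beside CCAAT boxes, which NF-Y binds, and GC boxes, which SP1 binds. A promoter window of 300 bases (250 before to 50 after the start, RefSeq, mm10) was found for 26 of the 32 members. The sterol regulatory element core TCACNCCAC, searched on both strands, stood in the window of 1 of these 26 genes, Hmgcs1, and in 1.24% of 32851 windows of all genes. CCAAT stood in 14 of 15 synthesis genes with a window, and in 77.8% of their windows, against 37.4% of all windows. GGGCGG likewise stood in 14 of 15 genes, and in 83.3% of their windows, against 35.7% of all windows. Some genes have several windows. These matches describe the letters in the window only. The 250 bases before the start are shown for Hmgcs1, the member with the core, at chr13:119690101-119690350 on the plus strand, and for Ebp, a synthesis gene that was lower in both dendritic classes (below), at chrX:8193513-8193762 on the minus strand. Capitals mark the 3 motifs on either strand, so that a CCAAT box on the other strand reads ATTGG and a GC box CCGCCC. Ebp was chosen after its values were seen.
Hmgcs1: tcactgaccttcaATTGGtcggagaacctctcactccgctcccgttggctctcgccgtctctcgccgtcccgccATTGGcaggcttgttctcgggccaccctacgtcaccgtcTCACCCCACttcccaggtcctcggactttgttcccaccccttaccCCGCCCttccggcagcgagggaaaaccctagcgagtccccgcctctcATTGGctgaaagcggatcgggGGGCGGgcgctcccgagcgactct
Ebp: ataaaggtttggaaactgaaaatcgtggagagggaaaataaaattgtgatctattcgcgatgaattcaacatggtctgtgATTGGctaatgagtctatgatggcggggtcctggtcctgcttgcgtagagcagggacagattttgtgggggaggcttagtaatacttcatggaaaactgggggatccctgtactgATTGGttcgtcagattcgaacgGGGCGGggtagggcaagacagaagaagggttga
The core in Hmgcs1 lies 137 bases before the start, among 3 CCAAT boxes and 2 GC boxes. The Ebp stretch holds 2 CCAAT boxes, 1 GC box and 0 matches of the core. Of the other genes the results turn on, Idi1 spans chr13:8885501-8892451 on the plus strand, Sqle chr15:59315077-59331192 on the plus strand and Srebf2 chr15:82147181-82205379 on the plus strand. Lrp8 spans chr4:107802261-107876840 on the plus strand, Abca1 chr4:53030787-53159895 on the minus strand and Abcg1 chr17:31057675-31117988 on the plus strand (mm10, whole gene).

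In the 11696 cells with exactly 1 tag, clusters were made without the members and named by markers, which gave 7713 NK-like, 713 B cell-like, 155 T cell-like, 559 dendritic cell-like and 155 erythroid-like cells. Dendritic cells were divided by Fscn1, the fascin gene of mature dendritic cells, into 260 with at least 1 UMI (a counted RNA molecule) and 299 without. A cluster of 740 cells high in Il7r, whose best score was NK, stayed unnamed, since markers of type 1 innate lymphoid cells (ILC1) led it. A cluster of 84 cells scored as ILC1 by the marker rule. It is called the Il23r cluster here, a choice made after its values were seen, because Il23r and Cd4 were among its leading genes. Tags held 18485480 to 23091461 gene UMIs. Median UMIs per cell were 3949 in NK-like, 3908 in B, 6004 in T, 9283 in Fscn1-negative dendritic, 7161 in Fscn1-positive dendritic and 31339 in erythroid-like cells. Levels are CPM, a gene's count scaled to the class's own UMI total in a tag (counts per 1000000), as mean ± SD over the 3 tags. These levels carry no TMM factor, so their ratio can differ from the fitted difference. Since the library counts molecule ends, CPM is not scaled to gene length, and no ranking between genes is made. Differences are log2 values from edgeR's quasi-likelihood test with composition (TMM) scaling, and a call is an adjusted p below 0.05 over all genes tested.

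Summed over the 18 synthesis enzymes, the level was 209.6 ± 4.45 CPM in NK-like cells and highest in Fscn1-positive dendritic cells. The 3 tags stood at 214, 205 and 211 CPM in NK-like cells, 425, 355 and 335 CPM in Fscn1-negative and 531, 712 and 561 CPM in Fscn1-positive dendritic cells. These 3 classes did not overlap in any tag. B cell-like cells at 215 ± 5.26 CPM and the Il7r-high cluster at 199 ± 8.77 CPM lay near NK-like cells. Ebp made up much of the NK-like sum, at 76.7, 74.0 and 73.8 CPM, against 32.8, 41.9 and 31.97 CPM in B cell-like cells. Similar sums can therefore hide opposite movements. Of 14 enzymes tested in B cell-like cells, 5 were higher and 1, Ebp, was lower, or 42.9% called, beside 41% of all genes. T cell-like cells had 249 ± 29.96 CPM and erythroid-like cells 266 ± 19.9 CPM. Their ranges overlapped, and every tag of both lay above the NK-like range. Among 11 NK-like clusters the sum ran from 183 to 269 CPM, lowest in cluster 11 and highest in cluster 20. No test was made of a sum over members.

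**Figure D1:**
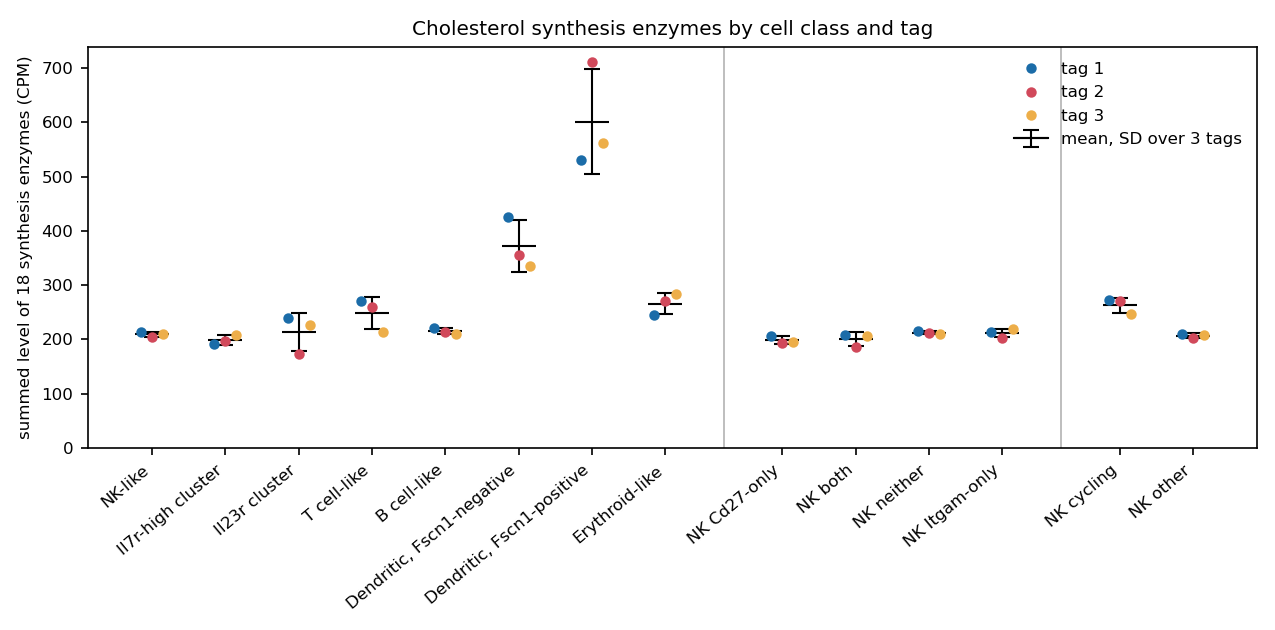
Summed level of the 18 synthesis enzymes (CPM, linear axis from 0) in each cell class and tag, with the mean and SD over 3 tags; cell types, NK classes by Cd27 and Itgam, and cycling against other NK-like cells are set apart by grey lines. Both dendritic classes lie above all other classes in every tag, and the NK classes by Cd27 and Itgam lie close together.

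Dendritic cells and NK-like cells differ in most genes of any kind, and the share of members called was not far above that of all genes. In Fscn1-negative dendritic cells 14 of 27 members were higher and 3 lower, where 55.9% of 10390 genes tested were called (29% higher, 26.9% lower); in Fscn1-positive cells 16 were higher and 2 lower, where 54.6% were called (28.6% higher, 25.9% lower). This is 63.0% and 66.7% of the tested members. The median log2 difference of the 27 was 0.80 and 1.86, beside -0.02 and -0.04 over all genes. Part of the 27 passed the filter on low counts through the classes where they were high, so the counts describe and do not test the list. Among these were Idi1, Fdps, Mvd, Fdft1, Sqle, Insig1 and Lrp8, whose NK-like sums alone would not have passed it. The limit holds for their calls in every cell type set against NK-like cells. NK markers summed to 2574 and 1998 CPM in the 2 dendritic classes, against 22105 CPM in NK-like cells. The cycling list stood at 418 and 227 CPM, against 320.1 CPM. The part of either in the results was not tested.

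Of the steps up to farnesyl diphosphate, 5 of 6 tested genes were higher in each dendritic class. Hmgcs1, which makes HMG-CoA, stood at 16.7, 16.6 and 20.1 CPM in NK-like cells, 63.9, 41.1 and 38.6 CPM in Fscn1-negative and 68.1, 83.5 and 82.1 CPM in Fscn1-positive dendritic cells. Every Fscn1-positive tag lay above every Fscn1-negative tag, and these above every NK-like tag. Against NK-like cells the gene was higher in both (log2 difference 1.71, SE 0.18, edgeR adjusted p = 2e-10, and log2 difference 2.55, SE 0.18, edgeR adjusted p = 7.8e-15). Idi1, the isopentenyl diphosphate isomerase, stood at 6.67, 5.36 and 7.14 CPM in NK-like cells, 32.5, 28.3 and 20.02 CPM in Fscn1-negative and 79.2, 139 and 95.8 CPM in Fscn1-positive cells. The 3 groups stood in the same order with no overlap. Its difference was the widest of these steps in Fscn1-positive cells (log2 difference 4.47, SE 0.21, edgeR adjusted p = 9e-20), beside 2.36 (SE 0.26) in Fscn1-negative cells. Idi1 passed the filter on low counts only through classes other than NK-like cells. Fdps, the farnesyl diphosphate synthase, stood at 12.2, 9.28 and 8.497 CPM, 76.9, 67.4 and 71.9 CPM and 93.5, 95.3 and 52.8 CPM in the same order of classes. The 2 dendritic classes overlapped for Fdps, with tag 3 of the Fscn1-positive cells the lowest of the 6, and both lay apart from NK-like cells (log2 difference 3.17, SE 0.19, edgeR adjusted p = 8.8e-17, and log2 difference 3.47, SE 0.21, edgeR adjusted p = 1.5e-16). Pmvk, the phosphomevalonate kinase, was higher by 2.36 (SE 0.19) and 2.91 (SE 0.20), and Mvd, the decarboxylase, by 2.16 (SE 0.36) and 2.42 (SE 0.41). Acat2, the thiolase at the head of the path, was lower in Fscn1-negative cells at 4.39 ± 1.45 against 12.5 ± 1.20 CPM (log2 difference -1.25, SE 0.37, edgeR adjusted p = 0.004), a call that was lost without tag 3 (-0.93, edgeR adjusted p = 0.12). In Fscn1-positive cells Acat2 was at 6.10 ± 3.37 CPM and missed the threshold (edgeR adjusted p = 0.15).

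From squalene onwards 8 of 11 enzymes were tested, and most of those called were higher in dendritic cells, with Ebp lower. Sqle, squalene epoxidase, a rate-limiting step, stood at 1.04, 0.756 and 0.772 CPM in NK-like cells, where all cells together gave 31 UMIs. In Fscn1-negative dendritic cells it stood at 14.1, 8.80 and 12.6 CPM and in Fscn1-positive cells at 19.0, 29.97 and 19.6 CPM. Every dendritic tag lay above the NK-like tags, and the lowest Fscn1-positive tag lay above the highest Fscn1-negative one (log2 difference 4.03, SE 0.44, edgeR adjusted p = 1.4e-09, and log2 difference 5.10, SE 0.43, edgeR adjusted p = 1.7e-12). Sqle passed the filter on low counts only through classes other than NK-like cells. The same limit holds for its calls in B cell-like and erythroid-like cells below. Cyp51, the lanosterol demethylase, rose by 2.28 (SE 0.24) and 3.31 (SE 0.23); the gene overlaps Akap9 on the opposite strand. Fdft1, squalene synthase, which overlaps Ctsb on the opposite strand, had 7.46 ± 1.61 CPM in NK-like cells, 11.3 ± 3.39 CPM in Fscn1-negative cells and 27.6 ± 6.42 CPM in Fscn1-positive cells. Its rise was 2.32 (SE 0.30) in Fscn1-positive cells; in Fscn1-negative cells it was 0.87 (SE 0.33), in 2 of 3 tags (edgeR adjusted p = 0.022), and was lost without tag 1 (0.66, edgeR adjusted p = 0.2) or tag 2 (0.83, edgeR adjusted p = 0.084), and with scaling by library totals (0.55, edgeR adjusted p = 0.13). Msmo1, the methylsterol oxidase, rose by 1.07 (SE 0.25) and 2.28 (SE 0.24). Sc5d, the sterol desaturase, stood at 13.0, 9.77 and 9.64 CPM in Fscn1-negative cells, below every NK-like tag without passing the test (-0.49, edgeR adjusted p = 0.17). It was higher in Fscn1-positive cells (log2 difference 1.08, SE 0.27, edgeR adjusted p = 0.00098), in tags 1 and 2, with tag 3 at 15.6 CPM against 19.5 CPM in NK-like cells. That call was lost without tag 2 (0.83, edgeR adjusted p = 0.071).

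Ebp, the sterol isomerase, was lower than in NK-like cells in both dendritic classes. Its tags stood at 76.7, 74.0 and 73.8 CPM in NK-like cells, 49.8, 51.8 and 42.3 CPM in Fscn1-negative and 26.9, 41.7 and 31.3 CPM in Fscn1-positive dendritic cells. Both dendritic classes lay below the NK-like tags throughout, and the highest Fscn1-positive tag lay just below the lowest Fscn1-negative one. Ebp fell by -0.71 (SE 0.17) on the log2 scale in Fscn1-positive cells (edgeR adjusted p = 0.00068). The fall of -0.34 (SE 0.13) in Fscn1-negative cells (edgeR adjusted p = 0.032) was lost in 8 alternatives, among them without tag 1 (-0.27, edgeR adjusted p = 0.22) and without tag 3 (-0.24, edgeR adjusted p = 0.32). Without tag 1 the call in Fscn1-positive cells was lost too (-0.45, edgeR adjusted p = 0.092). Nsdhl and Dhcr7, a sterol dehydrogenase and the last reductase, missed the threshold in both dendritic classes, with Nsdhl at 0.91 (SE 0.40) (edgeR adjusted p = 0.052) and Dhcr7 at -0.94 (SE 0.60) (edgeR adjusted p = 0.19) in Fscn1-positive cells.

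Among the regulators, Srebf2, which encodes SREBP2, was higher in both classes. It stood at 26.3, 22.3 and 22.6 CPM in NK-like cells, 103, 88.0 and 92.7 CPM in Fscn1-negative and 106, 126 and 119 CPM in Fscn1-positive dendritic cells. Each dendritic tag was above all NK-like tags (log2 difference 2.30, SE 0.14, edgeR adjusted p = 7.3e-17, and log2 difference 2.73, SE 0.15, edgeR adjusted p = 5.3e-18). Insig1, itself an SREBP target, stood at 6.94 ± 1.71 CPM, 9.52 ± 3.21 CPM and 18.8 ± 4.33 CPM in these classes and was called in both, in 2 of 3 Fscn1-negative tags (0.80 (SE 0.32), edgeR adjusted p = 0.033) and in 3 of 3 Fscn1-positive tags (1.86 (SE 0.31), edgeR adjusted p = 4.2e-06). Without tag 1 or tag 3 the Fscn1-negative call was lost (1.000, edgeR adjusted p = 0.053, and 0.49, edgeR adjusted p = 0.41), as it was with library totals (0.49, edgeR adjusted p = 0.17). Insig2, Scap and Srebf1, which overlaps Rai1 on the opposite strand, missed the threshold in both, with log2 values between -0.26 and 0.50.

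Of the uptake and transport genes, Lrp8 and Npc2 were higher in both dendritic classes. Lrp8, a lipoprotein receptor, gave 8 UMIs in all NK-like cells, at 0.346, 0.0687 and 0.290 CPM, and 13.0, 18.6 and 11.1 CPM in Fscn1-negative and 49.1, 48.2 and 13.7 CPM in Fscn1-positive dendritic cells. All 6 dendritic values were far above the NK-like ones, and tag 3 of the Fscn1-positive cells lay within the Fscn1-negative range (log2 difference 6.02, SE 0.55, edgeR adjusted p = 1.7e-11, and log2 difference 7.48, SE 0.50, edgeR adjusted p = 4.7e-15). Lrp8 passed the filter only through classes other than NK-like cells. Npc2, which hands cholesterol to NPC1 inside lysosomes, stood at 152, 162 and 150.04 CPM, 443, 417 and 438 CPM and 659, 608 and 563 CPM in the same order. The 3 classes did not overlap (log2 difference 1.80, SE 0.13, edgeR adjusted p = 3.7e-14, and log2 difference 2.38, SE 0.14, edgeR adjusted p = 1.9e-17). Npc1, its membrane partner, missed the threshold in both, at -0.49 (SE 0.22) and -0.18 (SE 0.25); the gene overlaps Rmc1 on the opposite strand. Stard4, a sterol carrier, missed it too, at -0.06 (SE 0.32) and 0.53 (SE 0.35).

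The ester and efflux genes moved apart from each other. Soat1, which esterifies cholesterol, stood at 23.7, 22.5 and 19.3 CPM in NK-like cells, 73.6, 89.9 and 71.2 CPM in Fscn1-negative and 38.0, 53.5 and 46.9 CPM in Fscn1-positive dendritic cells. The Fscn1-negative cells were highest in every tag and the NK-like cells lowest (log2 difference 2.15, SE 0.15, edgeR adjusted p = 1.6e-14, and log2 difference 1.49, SE 0.21, edgeR adjusted p = 1.4e-07). Abca1, an efflux pump, was high in NK-like cells at 37.6, 39.8 and 40.4 CPM and low in dendritic cells at 2.16, 9.77 and 5.93 CPM and 3.17, 11.8 and 3.91 CPM. All dendritic tags lay far below the NK-like ones and overlapped each other (log2 difference -2.38, SE 0.28, edgeR adjusted p = 4.7e-09, and log2 difference -2.06, SE 0.33, edgeR adjusted p = 1.5e-06). Abcg1, the other pump, stood at 74.4, 72.5 and 66.1 CPM in NK-like, 45.5, 48.9 and 54.9 CPM in Fscn1-negative and 229.8, 306 and 313 CPM in Fscn1-positive cells. The Fscn1-positive class stood above NK-like cells (log2 difference 2.40, SE 0.12, edgeR adjusted p = 2.4e-19); the Fscn1-negative tags lay below them without passing the test (-0.19, edgeR adjusted p = 0.29). Nr1h2, the LXR gene present in every class, was at 33.5 ± 2.98 CPM in NK-like and 26.6 ± 5.58 and 24.8 ± 7.92 CPM in dendritic cells and missed the threshold in both. Summing UMIs after thinning each cell to 2500 UMIs left 8 members higher in Fscn1-negative and 9 in Fscn1-positive cells.

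**Figure D2:**
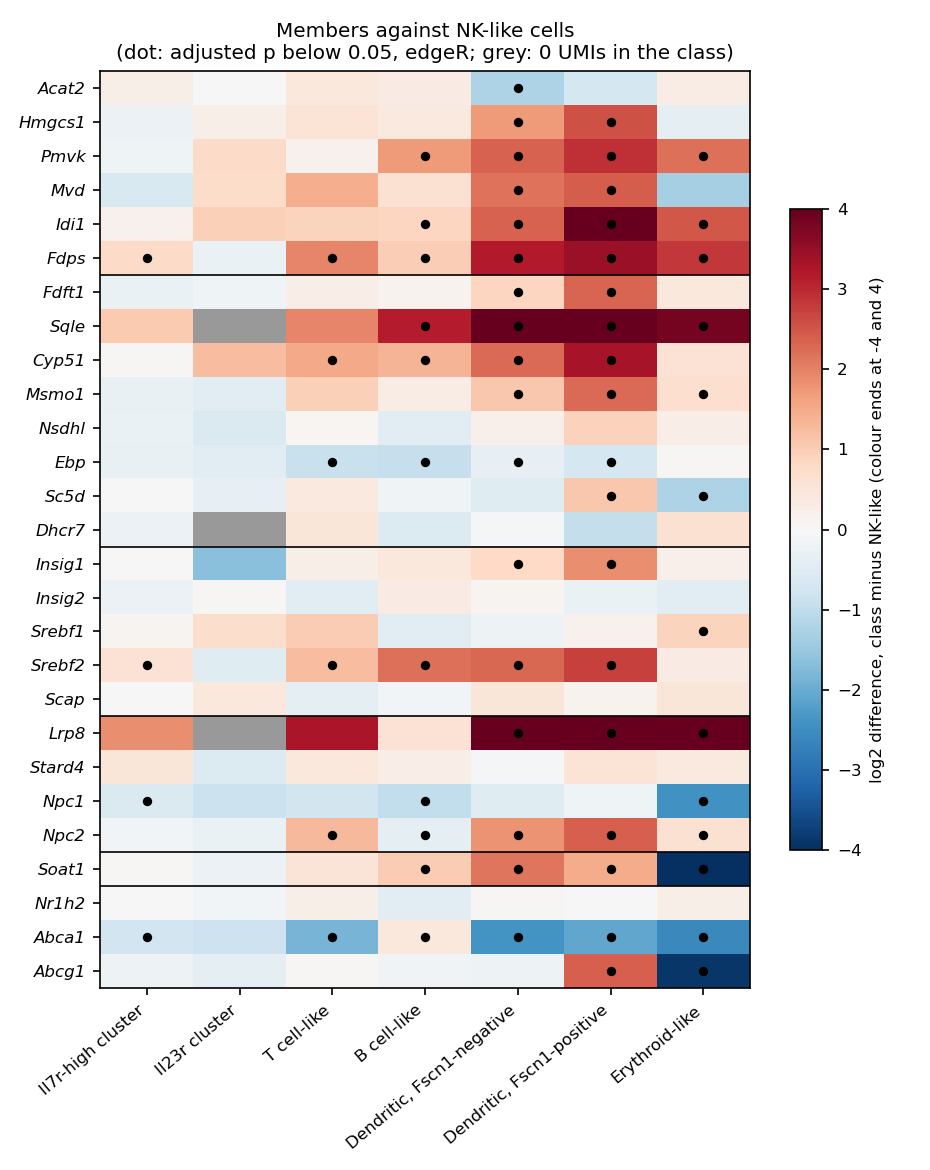
Log2 difference of each tested member (rows, grouped by role) between 7 cell classes (columns) and NK-like cells, red for higher and blue for lower, with a dot for an edgeR adjusted p below 0.05 and grey for 0 UMIs in the class. The dendritic columns hold 17 and 18 dots, most of them red; Abca1 and Ebp are blue in both and Acat2 in the Fscn1-negative column.

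**Figure D3:**
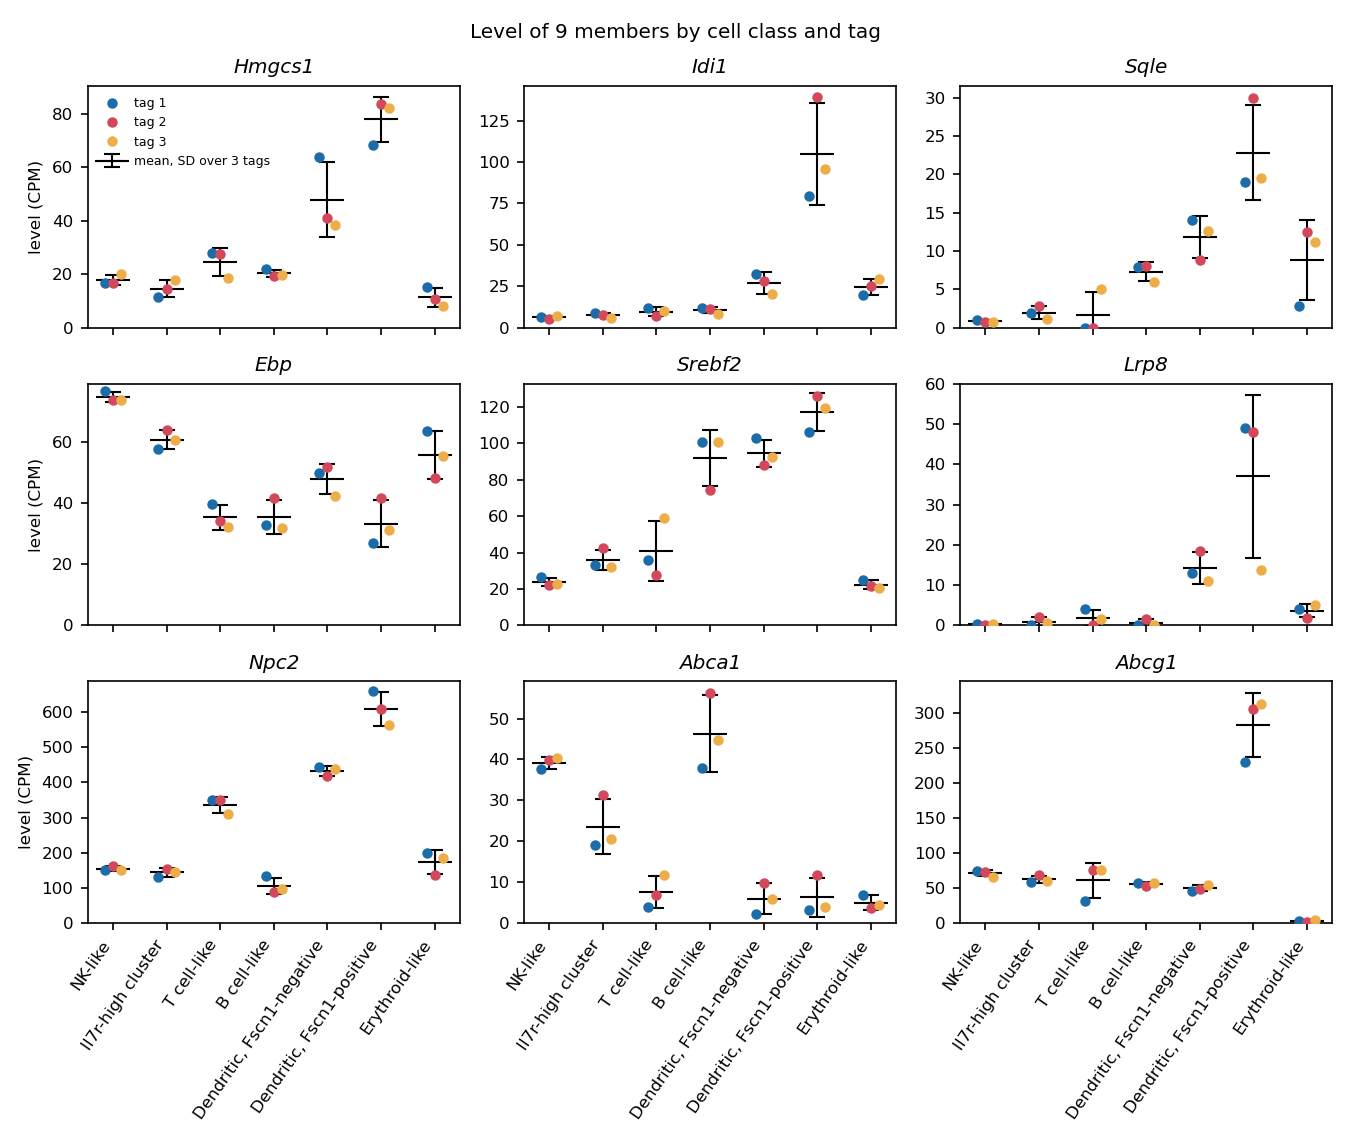
Level (CPM, linear axis from 0) of 9 members in 7 cell classes, one point per tag with the mean and SD over 3 tags. Idi1, Sqle, Lrp8 and Abcg1 peak in Fscn1-positive dendritic cells, while Ebp and Abca1 lie lower there than in NK-like cells.

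Within dendritic cells, Fscn1-positive cells were higher in 13 of 27 tested members and lower in 1, where 38.8% of genes were called (20.4% higher, 18.5% lower); the median log2 difference was 0.56, beside -0.02 over all genes. Of 14 tested synthesis enzymes, 8 were higher and 0 lower. Idi1 (log2 difference 2.11, SE 0.24, edgeR adjusted p = 3.2e-09), Sc5d (log2 difference 1.57, SE 0.36, edgeR adjusted p = 0.00062) and Fdft1 (log2 difference 1.45, SE 0.35, edgeR adjusted p = 0.0011) had the widest differences among the enzymes. For Idi1 and Fdft1 all Fscn1-positive tags lay above all Fscn1-negative tags, and so they did for Sc5d, whose values were 34.9, 34.2 and 15.6 CPM against 13.0, 9.77 and 9.64 CPM. Msmo1 rose by 1.21 (SE 0.28), Sqle by 1.08 (SE 0.40), Cyp51 by 1.03 (SE 0.25), Hmgcs1 by 0.84 (SE 0.20) and Pmvk by 0.55 (SE 0.21). Fdps and Mvd, high in both dendritic classes, were not called between them (0.29, edgeR adjusted p = 0.28, and 0.26, edgeR adjusted p = 0.66). Outside synthesis, Abcg1 had the widest difference of all members (log2 difference 2.59, SE 0.15, edgeR adjusted p = 4.3e-16), and Lrp8 (1.46 (SE 0.41)), Insig1 (1.06 (SE 0.37)), Npc2 (0.59 (SE 0.14)) and Srebf2 (0.43 (SE 0.15)) were higher as well. Soat1 was the member that fell (log2 difference -0.66, SE 0.21, edgeR adjusted p = 0.01). Many of the smaller differences lost their call when 1 tag was left out, often at a similar size. Such a fit has fewer sums, so a lost call need not mean a smaller difference. With 1 tag left out, 10 members were higher and 0 lower (without tag 1), 6 and 0 (without tag 2) or 9 and 1 (without tag 3). Without tag 1 the calls of Insig1 (0.99, edgeR adjusted p = 0.14), Lrp8 (1.20, edgeR adjusted p = 0.079), Pmvk (0.62, edgeR adjusted p = 0.054) and Soat1 (-0.56, edgeR adjusted p = 0.064) were lost. Without tag 2 those of Cyp51 (0.56, edgeR adjusted p = 0.21), Hmgcs1 (0.65, edgeR adjusted p = 0.085), Insig1 (0.84, edgeR adjusted p = 0.2), Lrp8 (1.39, edgeR adjusted p = 0.07), Pmvk (0.47, edgeR adjusted p = 0.22), Soat1 (-0.72, edgeR adjusted p = 0.063), Sqle (0.61, edgeR adjusted p = 0.47) and Srebf2 (0.27, edgeR adjusted p = 0.32) were lost. Without tag 3 those of Fdft1 (1.17, edgeR adjusted p = 0.051), Pmvk (0.55, edgeR adjusted p = 0.094), Sqle (1.24, edgeR adjusted p = 0.088) and Srebf2 (0.43, edgeR adjusted p = 0.093) were lost. Abcg1, Idi1, Sc5d, Msmo1 and Npc2 kept their calls in each of the 3 fits. With sums of thinned cells 4 members were higher and 0 lower, and the sign of Cyp51 (-0.022) and Srebf2 (-0.0193) turned.

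The dendritic cells came from 3 clusters that differed in members. Cluster 15, led by Cst3 and Plbd1, held 218 Fscn1-negative and 5 Fscn1-positive cells, cluster 21, led by Il12b and Ccr7, held 10 and 98, and cluster 14, led by Fabp5 and Ccnd1, held 71 and 157. Cluster 14 also had monocyte or macrophage markers at 2852 CPM, against 728 CPM in cluster 15 and 16.1 CPM in cluster 21, and the cycling list at 602 CPM, against 274 and 44.5 CPM. These levels are given without a test, since the clusters come from the same cells. Idi1 stood at 19.1, 27.6 and 20.8 CPM in cluster 15, 61.3, 88.8 and 21.7 CPM in cluster 14 and 128, 180.0 and 172 CPM in cluster 21. Abcg1 stood at 29.3, 37.9 and 48.3 CPM, 142, 109.8 and 74.8 CPM and 347, 545 and 593 CPM in the same order. Both genes were thus highest in cluster 21 in every tag. Lrp8 was highest in cluster 14, at 63.2, 82.8 and 28.9 CPM, against 2.55, 1.15 and 7.49 CPM in cluster 15 and 33.9, 19.0 and 4.09 CPM in cluster 21. Nr1h3, the LXR gene of macrophages, stood at 39.5, 10.5 and 28.9 CPM in cluster 14, at 0, 1.15 and 0 CPM in cluster 15 and at 0 UMIs in cluster 21. Npc1 was also highest in cluster 14 (34.5 ± 7.92 CPM, against 17.9 ± 0.447 and 17.3 ± 1.39 CPM), whereas Npc2 was highest in cluster 21 (715 ± 64.1 CPM, against 446 ± 80.2 CPM in cluster 14 and 464 ± 3.23 CPM in cluster 15). With cluster 14 left out, Fscn1-positive cells were higher than Fscn1-negative cells in 10 members and lower in 1, with Abcg1 at 3.45 and Idi1 at 2.83 on the log2 scale. The share of all genes called without cluster 14 is not given here, so these counts do not set the members apart from other genes. With cluster 14 kept, 38.8% of all genes were called. In the fit without cluster 14 Pmvk (0.40, edgeR adjusted p = 0.24) and Soat1 (-0.62, edgeR adjusted p = 0.063) lost their calls, and Lrp8 and Insig1 were no longer among the genes tested.

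**Figure D4:**
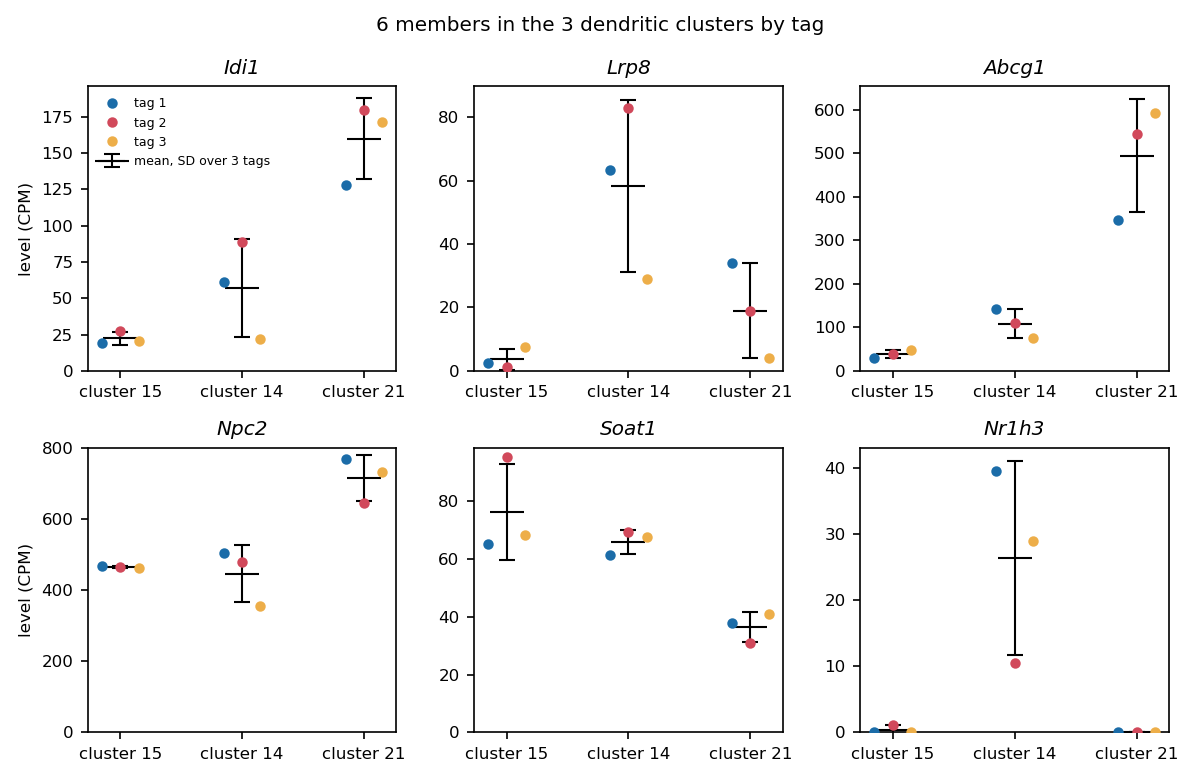
Level (CPM, linear axis from 0, a scale of its own for each gene) of 6 members in dendritic clusters 15, 14 and 21, one point per tag with the mean and SD over 3 tags. Idi1, Abcg1 and Npc2 are highest in cluster 21, Lrp8 and Nr1h3 in cluster 14, and Soat1 is lowest in cluster 21.

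In B cell-like cells 8 of 27 members were higher and 3 lower than in NK-like cells, where 41% of genes were called (20.5% higher, 20.5% lower). Srebf2 stood at 101, 74.1 and 101 CPM, a level near that of the Fscn1-negative dendritic cells, against 26.3, 22.3 and 22.6 CPM in NK-like cells, with no overlap (log2 difference 2.19, SE 0.13, edgeR adjusted p = 3.2e-16). Sqle stood at 7.96, 8.06 and 5.90 CPM, again above every NK-like tag (log2 difference 3.14, SE 0.50, edgeR adjusted p = 2.9e-06). Pmvk (1.71 (SE 0.20)), Cyp51 (1.35 (SE 0.27)), Fdps (0.98 (SE 0.28)), Idi1 (0.86 (SE 0.33)) and Soat1 (1.02 (SE 0.18)) were higher too. Hmgcs1, at 20.3 ± 1.39 CPM, was not called (0.38, edgeR adjusted p = 0.16). Ebp was lower in every tag at 32.8, 41.9 and 31.97 CPM (log2 difference -0.93, SE 0.14, edgeR adjusted p = 1.2e-06), and so was Npc1 (log2 difference -0.98, SE 0.23, edgeR adjusted p = 0.00063). Abca1, the pump that was low in dendritic cells, was higher in B cell-like cells at 37.8, 56.4 and 44.8 CPM (log2 difference 0.41, SE 0.17, edgeR adjusted p = 0.048), with tag 1 inside the NK-like range; the call was lost without tag 2 (0.30, edgeR adjusted p = 0.28) or tag 3 (0.42, edgeR adjusted p = 0.19) and with library totals (0.22, edgeR adjusted p = 0.28). Npc2 was lower by -0.36 (SE 0.15) (edgeR adjusted p = 0.046), lost without tag 2 (-0.21, edgeR adjusted p = 0.34) or tag 3 (-0.31, edgeR adjusted p = 0.18). Without tag 1, 2 or 3 in turn, 7, 6 and 6 members were higher; Idi1 was lost without tag 1 (0.82, edgeR adjusted p = 0.11) or tag 2 (0.69, edgeR adjusted p = 0.16) and Fdps without tag 3 (0.89, edgeR adjusted p = 0.062).

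T cell-like cells, 155 in all and 25 in tag 2, were higher in 4 of 27 members and lower in 2, where 19.7% of genes were called (9.36% higher, 10.3% lower). Npc2 stood at 350.3, 349.6 and 309 CPM, above the NK-like 152, 162 and 150.04 CPM in every tag (log2 difference 1.29, SE 0.15, edgeR adjusted p = 2.5e-08). Fdps stood at 39.8, 68.6 and 20.3 CPM, spread widely but above all NK-like tags (log2 difference 1.957, SE 0.39, edgeR adjusted p = 0.00025). Srebf2 (log2 difference 1.22, SE 0.26, edgeR adjusted p = 0.00056) and Cyp51 (log2 difference 1.52, SE 0.43, edgeR adjusted p = 0.0095) were higher as well. Without tag 3 the Srebf2 call was lost (0.61, edgeR adjusted p = 0.51). Abca1 at 3.98, 6.86 and 11.8 CPM (log2 difference -1.87, SE 0.42, edgeR adjusted p = 0.00087) and Ebp at 39.8, 34.3 and 32.1 CPM (log2 difference -0.90, SE 0.23, edgeR adjusted p = 0.004) were lower, with no tag overlapping the NK-like cells. The Ebp call was lost without tag 3 (-0.80, edgeR adjusted p = 0.2).

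Erythroid-like cells were higher in 8 of 27 members and lower in 5, beside 73.7% of all genes called in that comparison (35.3% higher, 38.4% lower). Tags 1 to 3 were uneven, with 39, 16 and 100 of these cells and medians of 13653, 37906 and 32709.5 UMIs per cell. In this class 60.0% of cells with 2500 UMIs or more carried at least 3 UMIs of the cycling list, beside 1.67% of NK-like cells, and the part of cycling in the values was not tested. Of 6 tested genes of the steps up to farnesyl diphosphate, 3 were higher and 0 lower, which is 50%, beside 73.7% of all genes. Fdps stood at 38.9, 59.1 and 51.8 CPM (log2 difference 2.81, SE 0.20, edgeR adjusted p = 6.1e-15), Idi1 at 19.4, 25.1 and 29.1 CPM (log2 difference 2.50, SE 0.25, edgeR adjusted p = 3.8e-11) and Pmvk at 23.6, 25.1 and 43.3 CPM (log2 difference 2.21, SE 0.19, edgeR adjusted p = 8.3e-13), each above all NK-like tags. Sqle, at 2.78, 12.5 and 11.2 CPM, was higher too (log2 difference 3.83, SE 0.45, edgeR adjusted p = 2.7e-09), with tag 1 the lowest. Lrp8 (4.64 (SE 0.70)), Srebf1 (0.90 (SE 0.26)), Msmo1 (0.66 (SE 0.27)) and Npc2 (0.60 (SE 0.14)) were also higher, though their tags overlapped NK-like cells for Srebf1, Msmo1 and Npc2. Msmo1 was lost without tag 2 (0.46, edgeR adjusted p = 0.22) or tag 3 (0.89, edgeR adjusted p = 0.052) and Srebf1 without tag 3 (0.62, edgeR adjusted p = 0.24). With scaling by library totals Npc2 (0.21, edgeR adjusted p = 0.072), Msmo1 (0.23, edgeR adjusted p = 0.44) and Srebf1 (0.47, edgeR adjusted p = 0.091) lost their calls. Hmgcs1 was not among them, at 15.3, 10.7 and 8.12 CPM against 16.7, 16.6 and 20.1 CPM (-0.40, edgeR adjusted p = 0.16), nor was Srebf2, at 22.4 ± 2.31 CPM.

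Soat1, both efflux pumps and Npc1 were lower in erythroid-like cells, whereas Npc2, the lysosomal partner of Npc1, was higher. Abcg1 stood at 2.78, 1.79 and 4.06 CPM, far below every NK-like tag (log2 difference -3.88, SE 0.28, edgeR adjusted p = 6.8e-15). Abca1 stood at 6.94, 3.58 and 4.40 CPM (log2 difference -2.56, SE 0.29, edgeR adjusted p = 5.4e-10) and Npc1 at 9.72, 0 and 4.74 CPM (log2 difference -2.44, SE 0.30, edgeR adjusted p = 6.5e-09), each likewise apart from NK-like cells. Soat1 gave 3 UMIs, or 0.708 CPM over the class with an exact Poisson interval of 0.146 to 2.07 CPM, against 22.0 CPM (20.5 to 23.6) in NK-like cells; the fitted log2 difference was -4.35 with a 95% interval of -5.34 to -3.36. These intervals cover counting error only. Sc5d was lower by -1.23 (SE 0.34) (edgeR adjusted p = 0.0016). Nr1h3 gave 0 UMIs, which allows up to 0.708 CPM (3 UMIs).

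In the Il7r-high cluster 14.8% of tested members were called against NK-like cells, near the 16.3% of all genes. NK markers summed to 10777 CPM there and ILC1 markers to 1738 CPM, against 22105 and 125 CPM in NK-like cells. Of 27 members 2 were higher and 2 lower, where 16.3% of genes were called (9.05% higher, 7.28% lower). Srebf2 stood at 33.2, 42.4 and 32.1 CPM, above all NK-like tags (log2 difference 0.58, SE 0.16, edgeR adjusted p = 0.0077), and Fdps at 20.9, 13.2 and 17.7 CPM, also above them (log2 difference 0.77, SE 0.26, edgeR adjusted p = 0.032). Abca1 stood at 19.0, 31.3 and 20.5 CPM (log2 difference -0.76, SE 0.18, edgeR adjusted p = 0.0022) and Npc1 at 21.8, 26.4 and 26.6 CPM (log2 difference -0.58, SE 0.19, edgeR adjusted p = 0.033), both below every NK-like tag. Each of these calls was lost with at least 1 tag left out, and the differences kept their direction. Over all genes, calls fell too, from 1696 to between 1065 and 1460. Without tag 1 Fdps (0.81, edgeR adjusted p = 0.057) and Npc1 (-0.55, edgeR adjusted p = 0.067) were lost. Without tag 2 Srebf2 (0.41, edgeR adjusted p = 0.21) and Npc1 (-0.58, edgeR adjusted p = 0.13) were lost, and without tag 3 Fdps (0.64, edgeR adjusted p = 0.24), Npc1 (-0.58, edgeR adjusted p = 0.16) and Abca1 (-0.61, edgeR adjusted p = 0.099). Without the replicate block Fdps was lost as well (0.75, edgeR adjusted p = 0.066). In the Il23r cluster 0 of 27 members were called by edgeR and 1 by DESeq2, where 19.5% of genes were called (9.56% higher, 9.96% lower). Its 84 cells gave 0 UMIs of Sqle, Lss, Tm7sf2, Dhcr7, Lrp8 and Nr1h3, which allows up to 6.41 CPM each (3 UMIs).

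NK cells mature from CD27-positive to CD11b-positive cells, CD11b being the product of Itgam. Among NK-like cells thinned to 2500 UMIs, 851 had UMIs of Cd27 alone, 2481 of Itgam alone, 429 of both and 3259 of neither. Exactly 1 UMI of the gate gene placed 81.4% of Cd27-only and 66.8% of Itgam-only cells. In the unthinned sums Itgam stood at 64.1 CPM in Cd27-only cells, against 478 CPM in Itgam-only cells. The classes are therefore mixed, which can narrow differences between them. As a check of the classes without the gene each list shares with the gates, genes of early NK cells other than Cd27 summed to 1836 CPM in Cd27-only and 711 CPM in Itgam-only cells, and genes of late NK cells other than Itgam to 1195 and 2938 CPM. The synthesis enzymes summed to 206, 194 and 195 CPM in Cd27-only cells and 214, 203 and 219 CPM in Itgam-only cells, and the 2 ranges overlapped. Cells with both had 200.3 ± 12.8 CPM and cells with neither 213 ± 3.45 CPM. Between Cd27-only and Itgam-only cells 0 of 27 members were higher and 1 lower, where 12.7% of genes were called (7.61% higher, 5.08% lower). The member was Abca1, at 28.5, 32.2 and 35.8 CPM in Cd27-only and 44.0, 48.8 and 41.9 CPM in Itgam-only cells, with no overlap (log2 difference -0.44, SE 0.14, edgeR adjusted p = 0.029). The call was lost without tag 1 (-0.39, edgeR adjusted p = 0.18), without tag 2 (-0.37, edgeR adjusted p = 0.24), without the replicate block (-0.43, edgeR adjusted p = 0.11) and with DESeq2 (-0.43, DESeq2 adjusted p = 0.17). It was lost too with all barcodes (-0.16, edgeR adjusted p = 0.41), with sums of thinned cells (-0.53, edgeR adjusted p = 0.072) and with at least 2 gate UMIs (-0.51, edgeR adjusted p = 0.39), so that 7 of 15 alternatives ended it. Scap came next, at 19.5 ± 2.16 against 14.02 ± 1.74 CPM (log2 difference 0.55, SE 0.20, edgeR adjusted p = 0.059). Hmgcs1 differed by -0.13 (SE 0.19), a 95% interval of -0.51 to 0.25, Srebf2 by 0.31 (SE 0.16) and Ebp by -0.10 (SE 0.10), none past the threshold. Neither comparison with the cells that had both called a member by edgeR, where 2.89% of genes (1.94% higher, 0.95% lower) were called for both against Itgam-only and 2.69% (2.07% higher, 0.614% lower) for Cd27-only against both.

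Cycling NK-like cells, 117 cells with at least 3 UMIs of 12 cell cycle genes after thinning, carried a median of 14375 UMIs against 4124 in the others, and 52 cells with 2 such UMIs lay just below the bound. They were higher in 4 of 28 members, all synthesis enzymes, and lower in 2, both efflux pumps, where 35.6% of 11043 genes tested were called (19.6% higher, 16% lower). Abca1 stood at 5.71, 1.57 and 11.9 CPM in cycling and 38.1, 39.7 and 39.6 CPM in other NK-like cells (log2 difference -2.52, SE 0.37, edgeR adjusted p = 1.3e-06). Abcg1 stood at 28.5, 28.2 and 31.8 CPM and 76.2, 73.7 and 65.1 CPM (log2 difference -1.11, SE 0.20, edgeR adjusted p = 4.3e-05). Neither pump overlapped between the groups. Idi1 stood at 13.3, 15.7 and 11.9 CPM in cycling and 6.55, 4.97 and 6.42 CPM in other cells, apart in every tag (log2 difference 1.40, SE 0.40, edgeR adjusted p = 0.0058). Fdps stood at 45.6, 29.8 and 1.99 CPM and 10.4, 8.23 and 8.99 CPM (log2 difference 1.67, SE 0.36, edgeR adjusted p = 0.00043); tags 1 and 2 were high, and tag 3 lay below the other cells. Ebp, lower in dendritic cells, was higher here at 105, 86.3 and 79.5 CPM against 74.9, 73.3 and 72.8 CPM (log2 difference 0.46, SE 0.15, edgeR adjusted p = 0.014), and Pmvk was higher by 0.86 (SE 0.34) (edgeR adjusted p = 0.048). The higher calls did not all hold when a tag was left out, with 1 left without tag 1, 0 without tag 2 and 3 without tag 3. With sums of thinned cells 0 were left. Over all genes, calls fell too without a tag, from 3932 to between 2311 and 3002. Without tag 1 Pmvk (0.83, edgeR adjusted p = 0.16), Fdps (1.15, edgeR adjusted p = 0.087) and Ebp (0.35, edgeR adjusted p = 0.17) were lost. Without tag 2 Pmvk (1.06, edgeR adjusted p = 0.09), Fdps (1.43, edgeR adjusted p = 0.17), Ebp (0.48, edgeR adjusted p = 0.1) and Idi1 (1.12, edgeR adjusted p = 0.13) were lost, and without tag 3 Pmvk (0.62, edgeR adjusted p = 0.28). With library totals Ebp (0.29, edgeR adjusted p = 0.12) and Pmvk (0.68, edgeR adjusted p = 0.11) were lost as well. Both were also lost with DESeq2 (Ebp 0.46, DESeq2 adjusted p = 0.086, Pmvk 0.86, DESeq2 adjusted p = 0.19) and with no expression filter. Pmvk was lost too with all NK-best clusters (0.84, edgeR adjusted p = 0.052) and with at least 6 cycling UMIs (0.84, edgeR adjusted p = 0.088), and Ebp with all barcodes (0.30, edgeR adjusted p = 0.067). Both pumps stayed lower in each of the 3 fits without a tag.

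**Figure D5:**
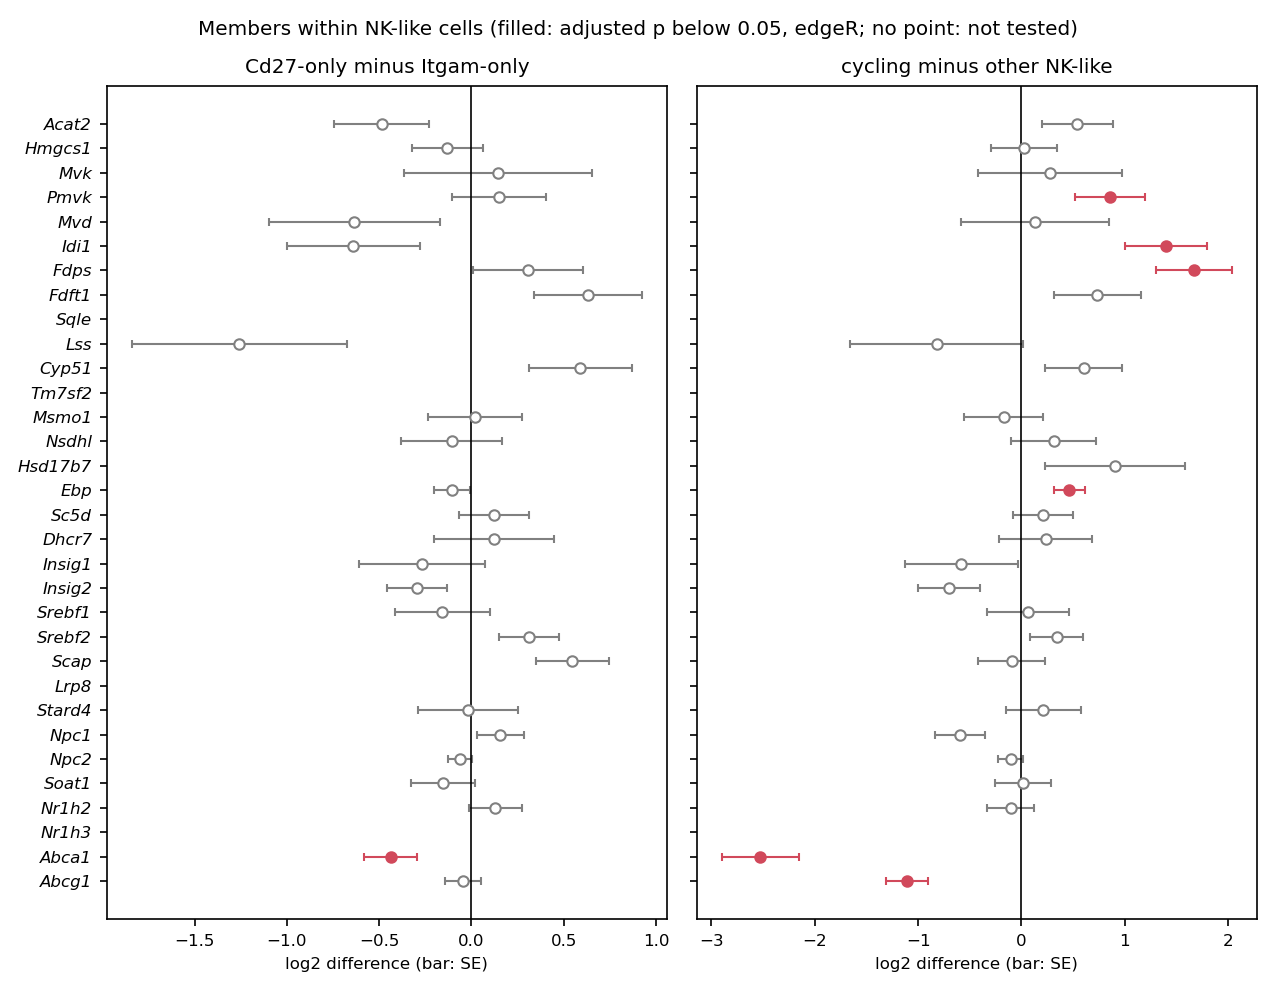
Log2 difference with its SE of each tested member (rows, by role) between Cd27-only and Itgam-only cells on the left and between cycling and other NK-like cells on the right, filled where the edgeR adjusted p is below 0.05. On the left Abca1 alone is filled, and on the right Pmvk, Idi1, Fdps and Ebp are filled above 0 and Abca1 and Abcg1 below 0.

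Mvk, Lss, Tm7sf2, Hsd17b7 and Nr1h3 were too low to be tested between cell types, so no call could be made for them. Mvk, mevalonate kinase, stood at 3.39 ± 0.365 CPM in NK-like cells, 5.23 ± 2.65 and 9.75 ± 3.504 CPM in Fscn1-negative and Fscn1-positive dendritic cells and 7.42 ± 0.813 CPM in erythroid-like cells. Lss, lanosterol synthase, stood at 3.58 ± 0.809, 3.60 ± 1.98, 6.64 ± 4.42 and 2.78 ± 1.21 CPM in the same order. Hsd17b7, a sterol ketoreductase, stood at 2.96 ± 0.593, 4.05 ± 2.29, 6.81 ± 3.36 and 3.81 ± 1.17 CPM. Tm7sf2, a sterol reductase that shares its strand with the overlapping Vps51, stood at 0.899 ± 0.0548, 2.08 ± 0.933, 3.85 ± 2.31 and 4.96 ± 1.20 CPM. Nr1h3 stood at 23.8, 3.21 and 5.87 CPM in Fscn1-positive dendritic cells, high in tag 1 alone, where monocyte or macrophage markers summed to 2835 CPM against 432 and 262 CPM in tags 2 and 3; their part was not tested. In NK-like cells Nr1h3 gave 16 UMIs.

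A wider list of 45 genes of neighbouring pathways, none of them members, was called about as often as all genes in dendritic cells. Between Fscn1-positive dendritic and NK-like cells 12 of 42 tested were higher and 11 lower, and in Fscn1-negative cells 14 and 10, with medians of -0.01 and 0.12. This is 54.8% and 57.1% of those tested, beside 54.6% and 55.9% of all genes. Of 5 tested genes of LXR targets and oxysterols, 3 were higher and 2 lower in each dendritic class. Cyp27a1, which makes an oxysterol, stood at 69.4 ± 12.9 CPM in Fscn1-negative and 44.7 ± 8.99 CPM in Fscn1-positive cells against 0.237 ± 0.0932 CPM in NK-like cells (log2 difference 8.17, SE 0.31, edgeR adjusted p = 3.4e-19, and log2 difference 7.64, SE 0.36, edgeR adjusted p = 6e-17). Scarb1, a receptor for high-density lipoprotein, stood at 45.0 ± 16.8 and 11.04 ± 6.79 CPM against 0.776 ± 0.256 CPM (log2 difference 6.03, SE 0.34, edgeR adjusted p = 1.9e-17, and log2 difference 4.19, SE 0.55, edgeR adjusted p = 3.4e-08), and was lower in the Fscn1-positive than in the Fscn1-negative class (-1.84 (SE 0.38)). Of 8 genes of the isoprenoid branch, which shares its precursor with cholesterol, 0 were higher and 4 lower in Fscn1-positive cells and 2 higher and 1 lower in Fscn1-negative cells, which is 50% and 37.5% called. Cyp27a1, Scarb1 and, in B cell-like cells below, Scd1 were near 0 in NK-like cells and passed the filter on low counts through other classes, so a difference was bound to appear. Tmem97, given for erythroid-like cells below, was low in NK-like cells and likewise passed the filter through other classes.

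Between the dendritic classes 3 wider genes were higher and 5 lower in Fscn1-positive cells, 19.0% of those tested, beside 38.8% of all genes. Gramd1b, which carries sterols from the plasma membrane to the endoplasmic reticulum, stood at 379 ± 40.6 CPM against 44.7 ± 9.94 CPM in Fscn1-negative cells (log2 difference 3.16, SE 0.13, edgeR adjusted p = 1.9e-20). Lipa, the lysosomal lipase that frees cholesterol from esters, was lower at 23.0 ± 7.30 against 67.3 ± 8.73 CPM (log2 difference -1.51, SE 0.23, edgeR adjusted p = 1.1e-06), and Fasn, fatty acid synthase, was lower by -0.996 (SE 0.40) (edgeR adjusted p = 0.046). In B cell-like cells 7 were higher and 8 lower (35.7% of those tested, beside 41% of all genes), with Scd1, a fatty acid desaturase, at 149 ± 7.85 CPM against 0.429 ± 0.152 CPM in NK-like cells (log2 difference 8.49, SE 0.27, edgeR adjusted p = 6.4e-24). In erythroid-like cells 13 were higher and 13 lower (61.9%, beside 73.7%), with Tmem97, a sterol-binding membrane protein, at 78.2 ± 10.1 against 6.23 ± 0.926 CPM (log2 difference 4.02, SE 0.21, edgeR adjusted p = 8.6e-19). Between Cd27-only and Itgam-only NK-like cells 0 of 34 were higher and 2 lower (5.88%, beside 12.7%). These were Mylip, the ligase that degrades lipoprotein receptors and an LXR target, at 111 ± 15.3 against 179 ± 8.35 CPM (log2 difference -0.62, SE 0.07, edgeR adjusted p = 2.3e-09), and Acss2, which makes acetyl-CoA from acetate, at 53.4 ± 7.75 against 81.5 ± 10.2 CPM (log2 difference -0.57, SE 0.11, edgeR adjusted p = 0.00015). Both were lower in cycling than in other NK-like cells as well (-1.45 (SE 0.16) and -1.19 (SE 0.21)).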

How the data were processed

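One single-cell library of splenic NK cells from wild-type mice was analysed, with UMI counts of genes and of lipid tags that the authors deposited as a sparse matrix. Per the file headers, Cell Ranger 7.0.0 made the count matrix. The submitters' processing notes give mm10 as the build and also name Seurat. Neither the gene annotation nor the handling of intron and antisense reads is given in the sources used here, so members that overlap another gene carry that uncertainty.

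Of 16384 barcodes, 15742 passed limits of 500 to 6000 genes and 10% mitochondrial UMIs. Tags were called above 134, 187 and 131 tag counts (Otsu thresholds). Barcodes with several tags (3567, removed as doublets) or none (479) were left out, and 11696 remained, with 3590, 4213 and 3893 cells in tags 1 to 3. Of doublets, 66.5% were expected to carry 2 tags, which leaves an estimated 1795 same-tag doublets. Cells were clustered with scanpy 1.11.5 (2000 variable genes, 30 components, 15 neighbours, Leiden resolution 1.5, set after the data were seen), with members, wider list, cell cycle, mitochondrial and ribosomal genes left out, and clusters were named from 16 marker lists.

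Raw UMIs were summed per tag and class (at least 10 cells). They were tested with edgeR 4.0.16 quasi-likelihood, TMM scaling, filterByExpr and a block for the tag, and p-values were adjusted by Benjamini and Hochberg's method. The block is part of the design because a tag marks the same source in every class. Comparisons with NK-like cells share those cells. On simulated counts 95 to 99% of changes of 2-fold and 57 to 64% of 1.5-fold were called. The changes were set only in genes well counted in every sum, with the same spread assumed for all genes. These shares therefore do not cover members at low counts. The planned ILC1-like class is the cluster of 84 cells, which the rule named ILC1 and which is called the Il23r cluster here; the unnamed Il7r-high cluster was added. Alternatives were DESeq2 1.42.0, other scalings, filters, classes and thinned sums, and each tag left out; Leiden resolution 1.0 and leaving out cluster 14 were chosen after seeing the data.

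The members and lists were chosen with earlier results of these data known. The text names members by symbol, from the wider list called genes only, at most 8 per comparison by size, and others only as markers or overlapping genes.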

Additional observations from a re-analysis of the deposited data

How the results depend on the processing

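Of 1229 values of the 90 called member differences under alternatives, 1099 kept their call and direction, 128 kept the direction but lost the call and 2 changed sign. Those were Cyp51 (-0.022) and Srebf2 (-0.0193) between the dendritic classes with sums of thinned cells; the cause was not tested. Thinning discards most UMIs of the deep classes. Its counts of members were 0 lower for Cd27-only against Itgam-only, 0 higher for cycling, 1 lower for the Il7r-high cluster, 1 lower for T, 1 lower for B, 8 higher for Fscn1-negative dendritic, 9 higher and 1 lower for Fscn1-positive dendritic, 4 higher and 3 lower for erythroid-like cells, and 4 higher and 0 lower between the dendritic classes. All genes called with thinned sums numbered 646 for Cd27-only against Itgam-only (1323 without thinning), 140 for both against Itgam-only (301), 131 for Cd27-only against both (280.0), 1474 for cycling (3932), 1121 for Il7r-high (1696), 1218 for Il23r (2028), 1244 for T (2046), 2691 for B (4259), 2891 for Fscn1-negative (5809) and 3165 for Fscn1-positive dendritic (5669), 3583 for erythroid-like (7658) and 1980.0 between the dendritic classes (4036). Summed synthesis levels were then 236.1 CPM in B, 213.5 CPM in Il7r-high, 309.2 CPM in T and 294.0 CPM in erythroid-like cells.

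For Cd27-only against Itgam-only cells, 0 members were lower with DESeq2 (835 genes called), 0 without the replicate block (701 genes), 0 when the gate gene needed 2 UMIs (607 genes) and 0 with all barcodes, 2 with classes from unthinned counts (2149 genes), and 1 was higher with cycling cells left out. With all clusters whose best score was NK, 2176 genes were called. Without the replicate block 108 genes were called for both against Itgam-only and 156 for Cd27-only against both, and 1 member was higher in Il7r-high cells. With classes from unthinned counts, 1 member was lower (879 genes) for both against Itgam-only and 1 (445 genes) for Cd27-only against both. The latter had 703 genes with all NK-best clusters and 1 member lower with all barcodes.

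For cycling cells, 2 members were higher with DESeq2 (2600.0 genes called), and 2 higher and 4 lower both with library totals and with no expression filter. For Il7r-high cells, 1 was lower with DESeq2, without the deepest cells and at Leiden resolution 1.0 (summed level 208.8 CPM), and 1 higher with no expression filter; a pairwise fit called 2848 genes. In Il23r cells 1 was higher with DESeq2 and 1 with all barcodes. DESeq2 called 7 higher in T cells. With library totals, 6 were lower in Fscn1-negative and 6 in Fscn1-positive dendritic cells, and 5 higher and 9 lower in erythroid-like cells. With all barcodes 16 were higher in erythroid-like cells, and the cycling sum was 248.3 CPM.

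Leaving out 1 tag gave 0 to 1 members lower for Cd27-only against Itgam-only, 0 to 3 higher for cycling, 1 higher and 0 to 1 lower for Il7r-high, 1 to 2 lower for T, 1 to 3 lower for Fscn1-negative and 1 to 2 lower for Fscn1-positive dendritic cells, and 6 to 10 higher and 0 to 1 lower between dendritic classes. Genes called then ran from 146 to 207 (both against Itgam-only), 2311 to 3002 (cycling), 1065 to 1460.0 (Il7r-high), 1163 to 1578 (Il23r) and 1108 to 1692 (T).

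Scaling by library totals moved the median log2 of all genes by -0.17 in cycling, -0.20 in T, -0.19 in B, -0.31 in Fscn1-negative and -0.41 in Fscn1-positive dendritic and -0.43 in erythroid-like cells. DESeq2 moved it by 0.18 in Il23r, 0.13 in T, 0.14 in Fscn1-positive dendritic and 0.18 in erythroid-like cells. No called member changed sign with either. The share of calls that were higher went from 59.9% to 42.4% with library totals for Cd27-only against Itgam-only, from 77.1% to 63.8% for Cd27-only against both, from 54.9% to 38.4% for cycling, from 47.5% to 28.3% (61.1% with DESeq2) for T, from 50.1% to 33.6% for B, from 51.9% to 33.5% for Fscn1-negative dendritic, from 52.5% to 32.1% for Fscn1-positive dendritic and from 47.9% to 35.9% for erythroid-like cells. With DESeq2 it went from 49.0% to 65.5% for Il23r. Members at a few UMIs in a small class, such as the Il23r cluster with 468298 UMIs, are limited by depth. Lrp8 and Sqle gave few UMIs in NK-like cells although that class held 36460449 UMIs.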
